A study of Mus musculus with 4 samples.

Results

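Irs1, Akt1, Tsc1 and Phlpp1 are 4 genes of the signalling route from insulin to the kinase mTOR. Reads listed for them, taken to come from sequencing of methylated RNA, were described here in mouse embryonic stem cells with and without Gsk-3 kinases. All regions that the deposited table lists under these 4 gene symbols were taken, which gave 10 of its 6697 distinct regions and 4 of its 3882 genes. Irs1 had 5 regions, Tsc1 and Phlpp1 had 2 each and Akt1 had 1.

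The study isolated polyadenylated RNA carrying N6-methyladenosine (m6A) with an antibody and sequenced it, from cells of the Gsk-3 double knockout (Gsk-3 DKO) and from wild-type cells. The labels call the strain E14K in both genotypes. Both were feeder-free, were grown in serum without the cytokine LIF, which sustains self-renewal, for 14 days before RNA was taken, and gave 1 m6A library and 1 input library each. The table carries 1 count per region for each genotype and no input column, so the 2 input libraries were not analysed here. The labels do not say how the knockout was made or whether each line is 1 clone, and nothing in the series' text gives a second culture.

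Insulin and insulin-like growth factors activate receptor kinases that phosphorylate the adaptor Irs1. Irs1 recruits a lipid kinase whose product brings the kinase Akt1 to the membrane, and Akt phosphorylates many proteins, Gsk-3 among them. Phlpp1 is a phosphatase that can remove an activating phosphate from Akt. Akt also acts on the TSC complex, in which Tsc1 stabilises Tsc2, and this complex holds back the mTORC1 kinase through the small GTPase Rheb. The m6A mark is laid down on mRNA mainly in long coding exons and around the stop codon, and is known to bear on the stability of mRNA in embryonic stem cells.

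Every listed region had fewer reads in the Gsk-3 DKO library than in the wild-type library, since 0 of 6697 regions had as many Gsk-3 DKO as wild-type reads or more, so the direction of the members was fixed by the table and is not a result about them. Wild-type counts started at 15 and had a median of 43, and the median Gsk-3 DKO count was 0. Library totals are not in the table, so sequencing depth is unknown. Of 10 markers of embryonic stem cells, 4 had a row: Pou5f1 with 6 Gsk-3 DKO reads against 55 wild-type reads, Esrrb with 7 against 146, Utf1 with 1 against 46 and Lin28a with 0 against 19. Of the deleted genes, Gsk3a had no row here, and Gsk3b had 3 reads against 78 only in an upstream region, at -3769 bases from its start, which checks nothing about the deletion.

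The size of a difference is given as a fold, the wild-type count over the Gsk-3 DKO count times 0.825, the constant in the authors' deposited ratio. Where the Gsk-3 DKO library had 0 reads in a region, a floor of 3 counts in that region was used and the fold is written as a lower bound. Such a bound, written as "at least", is not a 95% limit, and the lower 95% counting limit of the same fold is smaller. Ratios carry exact 95% Clopper-Pearson intervals and counts exact Poisson intervals, which cover counting error only and treat reads as independent. PCR copies of 1 molecule cannot be recognised in these reads and would make the intervals too narrow. With 1 library per genotype there is no replicate check and no p-value, and each comparison is between these libraries. Less mRNA of a gene, less methylation per mRNA, and a different mixture of cells cannot be told apart without input counts, and in bulk RNA fewer cells of a type and less RNA per cell cannot be told apart either.

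The 4 genes together had 8 Gsk-3 DKO reads against 1095 wild-type reads over their 10 regions, a 113-fold difference (95% interval 57.1 to 262). Irs1 held 77.3% of those wild-type reads. The Gsk-3 DKO library had 0 reads in 5 of the 10 regions, where 50.5% of all listed regions had none. At least a 10-fold difference was seen in 9 of 10 with zeros at the floor, against 52.5% of all listed regions. The floor applies to zeros only, so at low depth 1 read can pass 10-fold where 0 reads cannot. At 26 wild-type reads, Ppp2r5b with 1 Gsk-3 DKO read had 21.4-fold and Phlpp2 with 0 had a bound of 7.15-fold. The 10-fold share thus also depends on depth. All 10 were at least 4-fold lower, as were 99.9% of all listed regions. The median fold of the 10 regions was 21.4 with zeros at their bound, against 10.4 over all regions. These 4 genes had been picked out in earlier work on the same counts for the size of their change, so these figures describe the genes and support nothing about them.

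**Figure D1:**
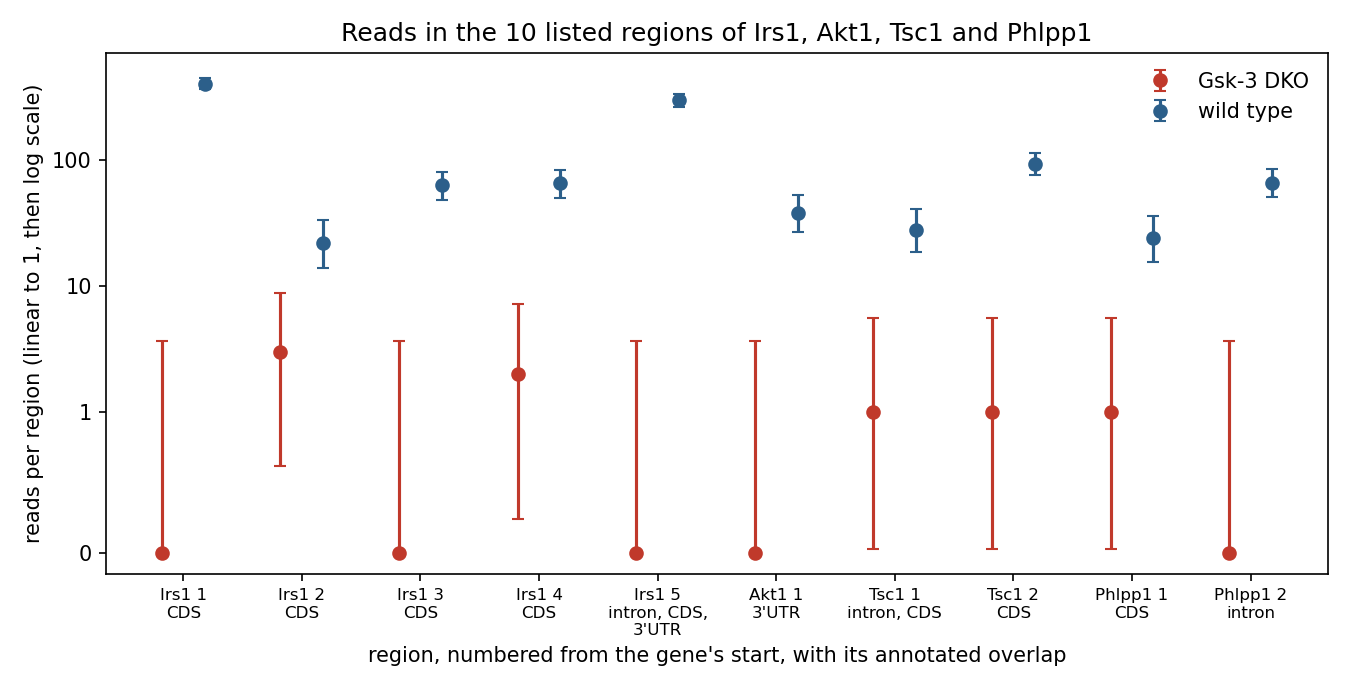
Reads in each listed region of Irs1, Akt1, Tsc1 and Phlpp1 (y axis, linear up to 1 and logarithmic above), with Gsk-3 DKO in red left of wild type in blue; bars are exact Poisson 95% intervals of single counts, not replicate spread. Gsk-3 DKO counts run from 0 to 3 and wild-type counts from 22 to 401. The intervals of the 2 libraries do not overlap in any of the 10 regions. The share of all listed regions with such separation is not given here. As 99.9% of them were at least 4-fold lower, the separation is not a result about these genes.

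Irs1 (NCBI gene 16367, transcript NM_010570) had the most reads of the 4 genes. Its regions lie on chromosome 1, in coordinates that match the GRCm38 build, and all 5 overlap coding sequence. They are numbered here from the transcription start, which lies at the high-coordinate end. Region 1 (82290455 to 82291353, 899 bases), centred 535 bases from the start in the coding exon, had 0 reads in Gsk-3 DKO cells and 401 (363 to 442) in wild-type cells, at least 110-fold lower. This was the region with the most wild-type reads of the 10, and 1 of the 5 without Gsk-3 DKO reads.

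Irs1 region 2 (82289899 to 82290079, 181 bases), centred 1450 bases from the start, had 3 reads in Gsk-3 DKO cells and 22 in wild-type cells, a 6.05-fold difference (1.82 to 31.6). Region 3 (82288673 to 82288938) had 0 against 63, at least 17.3-fold lower at the floor, with a lower counting limit of 13.7. Region 4 (82287635 to 82287873) had 2 against 65, a 26.8-fold difference (7.13 to 226). Regions 2 to 4 lie in the interior of the coding exon and were the shallower ones in wild-type cells.

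Irs1 region 5 (82286775 to 82287499, 725 bases), centred 4302 bases from the start, is annotated as overlapping intron, coding exon and 3'UTR, so it covers the end of the coding sequence. It had 0 reads in Gsk-3 DKO cells and 295 (262 to 331) in wild-type cells, at least 81.1-fold lower. The 2 deep regions thus stand at opposite ends of the coding sequence, and neither had a Gsk-3 DKO read.

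Per length, the Gsk-3 DKO library gave 0 reads per 100 bases in Irs1 region 1 and region 5, against 44.6 and 40.7 in wild type. In regions 2, 3 and 4 it gave 1.66, 0 and 0.837 reads per 100 bases, against 12.2, 23.7 and 27.2 in wild type. The wild-type profile was therefore high at both ends and lower between, while the 5 Gsk-3 DKO reads fell in the interior. The counting interval of the fold in region 2 (upper end 31.6) lay below the lower counting limit in region 1 (89.2) and in region 5 (65.5). These intervals treat reads as independent, and PCR copies, which could not be recognised, would make them too narrow. The difference among regions was not tested. The interval of region 4 overlapped both limits.

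The 5 Irs1 regions covered 2310 bases, or 50.4% of the 4579 bases from the first to the last, with uncovered gaps of 135 to 960 bases. Summed over them, Irs1 had 5 Gsk-3 DKO reads (1.62 to 11.7) against 846 wild-type reads (790 to 905), a 140-fold difference (59.6 to 431). Regions 1 and 5 contributed 0 of the 5 Gsk-3 DKO reads and 696 of the wild-type reads, or 82.3%. Regions 2 to 4 together had 5 against 150, a 24.7-fold difference (10.4 to 77.3). The table also lists regions 2 to 5 under the predicted gene Gm19537 as upstream of it. Whether the counting used strand is not given in the sources used here, so reads of another transcript in these regions could not be set apart.

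**Figure D2:**
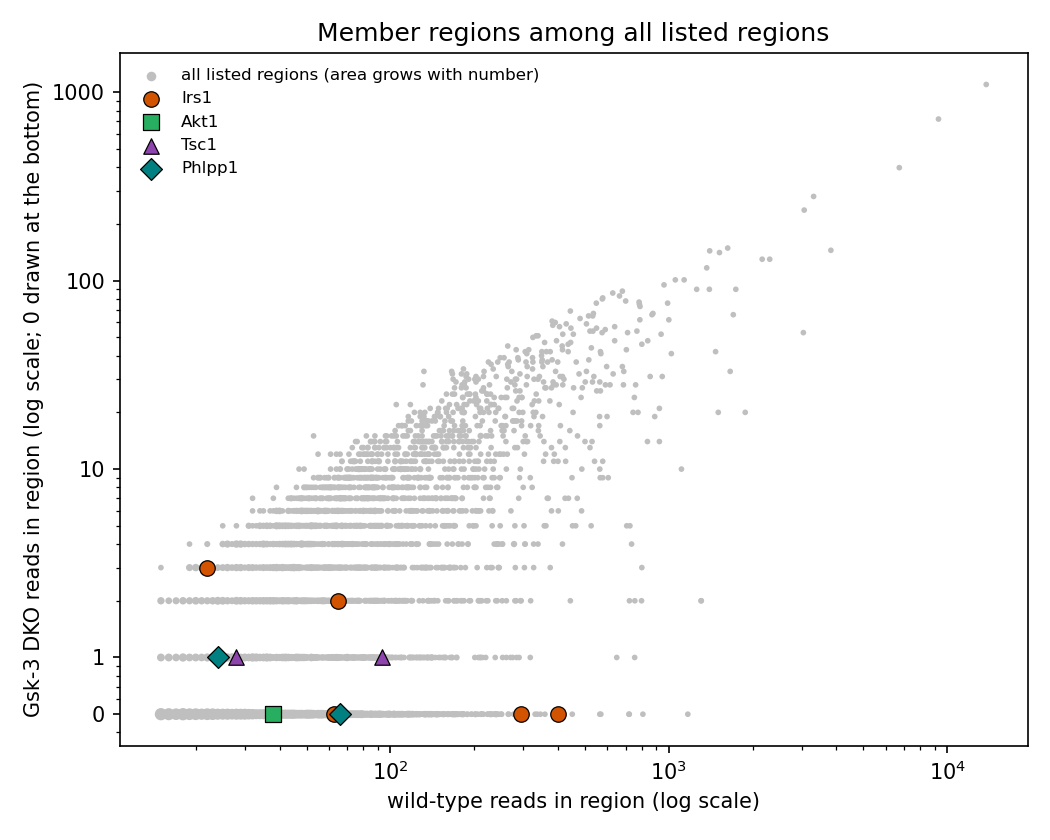
Gsk-3 DKO reads (y axis, logarithmic, with 0 drawn at the bottom) against wild-type reads (x axis, logarithmic) in every listed region, with the regions of the 4 genes in colour. Irs1 regions 1 and 5, at 401 and 295 wild-type reads, stand far along the line of regions without Gsk-3 DKO reads.

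At the depth of Irs1 regions 1 and 5, most exonic regions had Gsk-3 DKO reads. Of 123 exonic regions with at least 295 wild-type reads, 8 had 0 Gsk-3 DKO reads (6.50%), and their median Gsk-3 DKO count was 30. These 8 regions belonged to 7 genes, and Irs1 was the 1 gene with 2 of them. The cutoff of 295 was the count of Irs1 region 5, so both deep Irs1 regions passed it by construction. The number of genes with 2 exonic regions this deep is not given here. The exonic regions without Gsk-3 DKO reads that had more wild-type reads than Irs1 region 1 included a coding region of Tnc, the matrix glycoprotein tenascin C, with 570. In the 57 exonic regions with wild-type counts from 0.8 to 1.25 times that of region 1, the median was 28 Gsk-3 DKO reads, with quartiles of 12 and 42, and 3 had 0.

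The interior Irs1 regions stood differently among regions of like depth. In the 606 exonic regions with a wild-type count like that of region 2, 592 (97.7%) had 3 or fewer Gsk-3 DKO reads, so its 3 reads were near the top. For region 3, 226 of 733 like exonic regions (30.8%) also had 0. For region 4, 395 of 754 (52.4%) had 2 or fewer. A count of 0 against 63 was thus common at its depth, and 0 against 401 was not.

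Among the 142 genes with at least 5 listed regions, the median fold of summed counts was 16.8, with quartiles of 10.8 and 30.2, and 3 genes had a higher value than Irs1. Another 4 of these genes had 0 summed Gsk-3 DKO reads, and their folds are bounds that cannot be ranked against Irs1. Summed wild-type reads were higher than those of Irs1 in 68 of all 3882 genes. By the deepest region of each gene, log2 of Gsk-3 DKO over wild type was -9.37 for Irs1. That value carries a pseudocount of 0.5 on both counts and, at 0 Gsk-3 DKO reads, moves with the wild-type count alone.

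Irs2 is the other adaptor of the same family that had regions in the table, and it was set beside Irs1 after its values were seen. Its longest coding region on chromosome 8 (11006803 to 11008349), centred 854 bases from the start, had 90 reads in Gsk-3 DKO cells and 1398 in wild-type cells, a 12.8-fold difference (10.3 to 16.0). Its last coding region (11004557 to 11005495), centred 3404 bases from the start, had 5 against 725, a 120-fold difference (51.0 to 369). The Irs2 coding region near the start thus had Gsk-3 DKO reads where Irs1 region 1 had none, while the coding regions farthest from the start of both genes had few or none.

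The remaining coding regions of Irs2 had 9 against 89 reads (8.16-fold) and 6 against 177 (24.3-fold). A pair of regions upstream of its start had 0 against 56, at least 15.4-fold lower, and 1 against 104, an 85.8-fold difference (15.1 to 3420). Over coding regions, Irs1 had 0.216 reads per 100 bases in Gsk-3 DKO cells and Irs2 3.49, while in wild-type cells Irs1 had 36.6 and Irs2 75.8. Summed over coding regions, Irs2 had 110 against 2389, a 17.9-fold difference (14.8 to 21.9). Of the 110, 90 came from the region near the start, and the folds of single regions varied within each gene, so the sums of the 2 genes are given side by side and were not compared by a test.

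**Figure D3:**
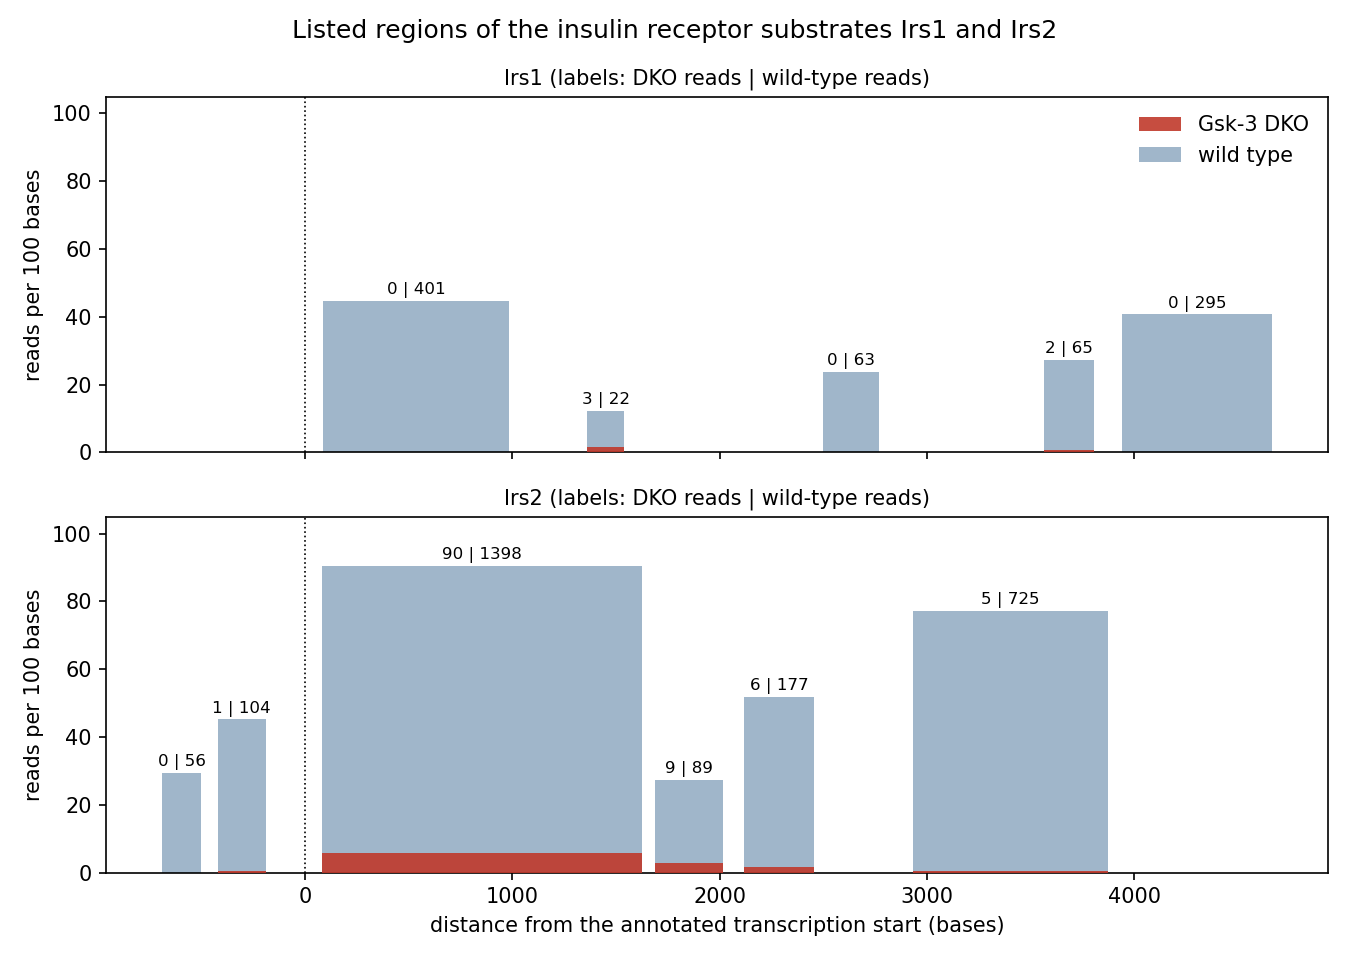
Reads per 100 bases (y axis) in the listed regions of Irs1 (top) and Irs2 (bottom), drawn to scale by distance from the annotated transcription start in bases (x axis); Gsk-3 DKO is red in front of wild type in blue, and labels give Gsk-3 DKO reads and then wild-type reads. Irs2 shows 90 Gsk-3 DKO reads in its first coding region, where Irs1 shows 0.

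Akt1 (NCBI gene 11651, transcript NM_009652), a kinase that carries the insulin signal from the membrane, had 1 region, in its 3'UTR on chromosome 12 (112654018 to 112654216, 199 bases), centred 20159 bases from the annotated start. It had 0 reads in Gsk-3 DKO cells and 38 (26.9 to 52.2) in wild-type cells, at least 10.4-fold lower at the floor of 3 counts. The lower counting limit of that fold was 8.09, so Akt1 passes 10-fold through the choice of floor. Among 871 exonic regions of like wild-type count, 376 (43.2%) also had 0 Gsk-3 DKO reads. At this depth Akt1 was like much of the table, and no fold beyond the bound could be resolved. The related kinase gene Akt2 had no row here.

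Phlpp1 (NCBI gene 98432, transcript NM_133821), the Akt phosphatase, had 2 regions on chromosome 1. The first (106172153 to 106172361, 209 bases), in a coding exon centred 388 bases from the start, had 1 read in Gsk-3 DKO cells and 24 in wild-type cells, a 19.8-fold difference (3.23 to 814). The table lists it also as upstream of LOC626049. The second (106207015 to 106207181, 167 bases), in an intron, had 0 against 66 (51.0 to 84.0), at least 18.1-fold lower at the floor, with a lower counting limit of 14.3. The deeper Phlpp1 region was thus the intronic one, the single region of the 10 with no exonic overlap.

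In the intron-only class 70.1% of regions had 0 Gsk-3 DKO reads, against 36.1% of exonic ones, and 89 of 142 intronic regions of like wild-type count (62.7%) had 0, so the count of Phlpp1 region 2 was common for its class and depth. For region 1, 513 of 692 like exonic regions (74.1%) had 1 or 0 reads. Summed, Phlpp1 had 1 Gsk-3 DKO read against 90 wild-type reads, a 74.2-fold difference (13.0 to 2964). The related phosphatase gene Phlpp2 had 0 against 26 in coding sequence, at least 7.15-fold lower. Of the genes for regulatory subunits of the phosphatase PP2A, which also acts on Akt, Ppp2r5b had 1 against 26 in its 5'UTR (21.4-fold, 3.52 to 879) and Ppp2r5d had 4 against 39 (8.04-fold, 2.90 to 31.0).

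Tsc1 (NCBI gene 64930, transcript NM_022887), a subunit of the complex that restrains mTORC1, had 2 regions on chromosome 2 and reads from both libraries in each. Region 1 (28676353 to 28676597, 245 bases), across an intron and a coding exon 35232 bases from the start, had 1 read in Gsk-3 DKO cells and 28 in wild-type cells, a 23.1-fold difference (3.82 to 944). Region 2 (28686781 to 28687116, 336 bases), in a coding exon 45705 bases from the start, had 1 against 93 (75.1 to 114), a 76.7-fold difference (13.4 to 3062). The intervals of the 2 folds overlap widely, so the regions did not differ beyond counting error.

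At the depth of Tsc1 region 2, 153 of 522 exonic regions (29.3%) had 1 or 0 Gsk-3 DKO reads and their median was 4. At that of region 1, 578 of 810 (71.4%) had 1 or 0. Summed, Tsc1 had 2 Gsk-3 DKO reads against 121 wild-type reads, a 49.9-fold difference (13.5 to 417). Its partner Tsc2 and the GTPase gene Rheb had no row here.

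Per length over all listed regions of a gene, Gsk-3 DKO cells gave 0.216 reads per 100 bases for Irs1 (0.0703 to 0.505), 0.266 for Phlpp1 (0.00673 to 1.48), 0.344 for Tsc1 (0.0417 to 1.24) and 0 for Akt1 (up to 1.85). These intervals overlap, so no order among the 4 genes was detectable in Gsk-3 DKO cells. In wild-type cells Irs1 had 36.6 reads per 100 bases (34.2 to 39.2), above Phlpp1 with 23.9 (19.2 to 29.4), Tsc1 with 20.8 (17.3 to 24.9) and Akt1 with 19.1 (13.5 to 26.2). In wild type the Irs1 interval lay above the other intervals, and those of Phlpp1, Tsc1 and Akt1 overlapped. The Irs1 level rested on its regions 1 and 5, with 42.9 wild-type reads per 100 bases together. Its regions 2 to 4 together had 21.9, and Phlpp1 region 2 alone had 39.5, a spread that the intervals do not cover. These levels describe regions that entered the table and not whole mRNAs.

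The genes most like Irs1, by the distance between log2 counts of both libraries in the deepest region, were Gpr133 (Adgrd1), an adhesion receptor gene, with 0 reads against 394 in an intron, Arap2 with 0 against 388 in an intron, and the transfer RNA gene Trnak-cuu with 0 against 359. None of their regions was a coding exon as that of Irs1 was. For Tsc1 they were Zdhhc8 with 1 against 91 and Prkar2a with 1 against 96, and 2 genes that tied behind them were not named. For Akt1 and Phlpp1, 24 and 6 genes had the same pair of counts, and none was singled out. Symbols that start with Gm and a digit or end with Rik were passed over, so genes that are not named may lie nearer. Likeness here rests on 1 library per genotype.

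The wider pathway was read from a list of 82 genes, from ligands to the targets of Akt and mTORC1, of which 34 had a row (41.5%), against 3451 of 21900 protein-coding genes (15.8%). The 34 include the 4 members, which have a row by choice, and without them 30 of 78 had one (38.5%). Expression of the genes in these cells was not taken into account, and the gap was not tested. By the deepest region of each gene, 14 of the 34 (41.2%) had 0 Gsk-3 DKO reads, where 46.2% of all listed genes had none. At least a 10-fold difference was seen in 21 of the 34 (61.8%), against 55.6% of all listed genes, and all 34 were at least 4-fold lower, against 99.9%. The 10-fold shares carry the limit of the floor given above. The median log2 of Gsk-3 DKO over wild type was -4.85 both for the 34 and for all listed genes. Without Irs1, Akt1, Tsc1 and Phlpp1, 11 of 30 had 0 reads (36.7%), 17 of 30 passed 10-fold (56.7%) and the median was -4.46. The place of the list against all genes moved with the choice of regions: its median was -3.85 against -4.32 for all genes with exonic regions only, and -5.54 against -4.27 with only the deeper regions (mean count of at least 22.5).

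Among ligands and receptors, 3 of 6 genes were listed. Igf2, a growth factor, had 1 read in Gsk-3 DKO cells against 141 in wild-type cells in an intronic region, a 116-fold difference (20.5 to 4626), and 0 against 41 and 0 against 54 in regions that overlap coding exons. Igf1r, the receptor for insulin-like growth factor 1, had 4 against 253 in a region across the end of its coding sequence, a 52.2-fold difference (20.1 to 193). Igf2r, which takes up and clears Igf2, had 2 against 141 in a coding exon, a 58.1-fold difference (15.8 to 485). The insulin receptor gene Insr had no row here.

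Of 9 adaptors, 4 were listed. Beside Irs1 and Irs2, Grb10, an adaptor that restrains insulin receptor signalling, had 0 reads in Gsk-3 DKO cells against 63 in wild-type cells in a region overlapping its 5'UTR and an intron, at least 17.3-fold lower, and Sh2b1, an adaptor of receptor kinases, had 5 against 39, a 6.43-fold difference (2.53 to 20.9). The lipid kinase genes were represented by Pik3r2 alone, a regulatory subunit, with 6 against 48 in an upstream region (6.60-fold). Inppl1, a lipid phosphatase, had reads from both libraries in all 5 of its regions, with 12 against 188 summed (12.9-fold, 7.22 to 25.5). The other listed lipid phosphatase gene, Inpp4b, had 0 against 17 in an intron, at least 4.67-fold lower.

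Of 9 genes for the mTOR complexes, 3 were listed. Akt1s1, which encodes PRAS40, an Akt substrate and inhibitor of mTORC1, had 0 reads in Gsk-3 DKO cells against 82 in wild-type cells in a region across an intron and a coding exon, at least 22.5-fold lower. The kinase gene Mtor had 1 against 47 in an upstream region (38.8-fold, 6.63 to 1563), 0 against 36 in a region overlapping a coding exon, at least 9.90-fold lower, and 1 against 19 in its 3'UTR. Prr5l had 0 against 18 in an intron.

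Genes that carry nutrient signals to mTORC1 had 7 of 13 listed. The sestrin gene Sesn1 had 0 reads in Gsk-3 DKO cells against 77 in wild-type cells in an intron, Wdr24 0 against 72 in its 5'UTR and Depdc5 0 against 50 in an intron, each at least 13.7-fold lower. Sesn3 had 1 against 24, Rragc 2 against 28 and Flcn 2 against 29. Nprl2 had 28 against 184 in a region upstream of its start, a 5.42-fold difference (3.63 to 8.38).

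Among downstream targets, 3 genes for forkhead transcription factors that Akt restrains were listed. Foxo3 had 13 reads in Gsk-3 DKO cells against 80 in wild-type cells in a coding exon, a 5.08-fold difference (2.81 to 9.95), Foxo1 had 5 against 47 (7.75-fold, 3.10 to 25.0) and Foxo4 5 against 87 (14.4-fold, 5.92 to 45.3). The mTORC1 substrate kinase gene Rps6kb1 was the 1 listed of 10 mTORC1 outputs, with 2 against 43 (17.7-fold, 4.62 to 151). The planned list also placed Grb10 among these outputs, but Grb10 was counted only among the adaptors. Beside Gsk3b, whose upstream region is given above, the other listed Akt targets were Tbc1d1, which acts on Rab GTPases, with 0 against 26 in an intron, and the cell death gene Bad, with 0 against 34 in an upstream region.

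**Figure D4:**
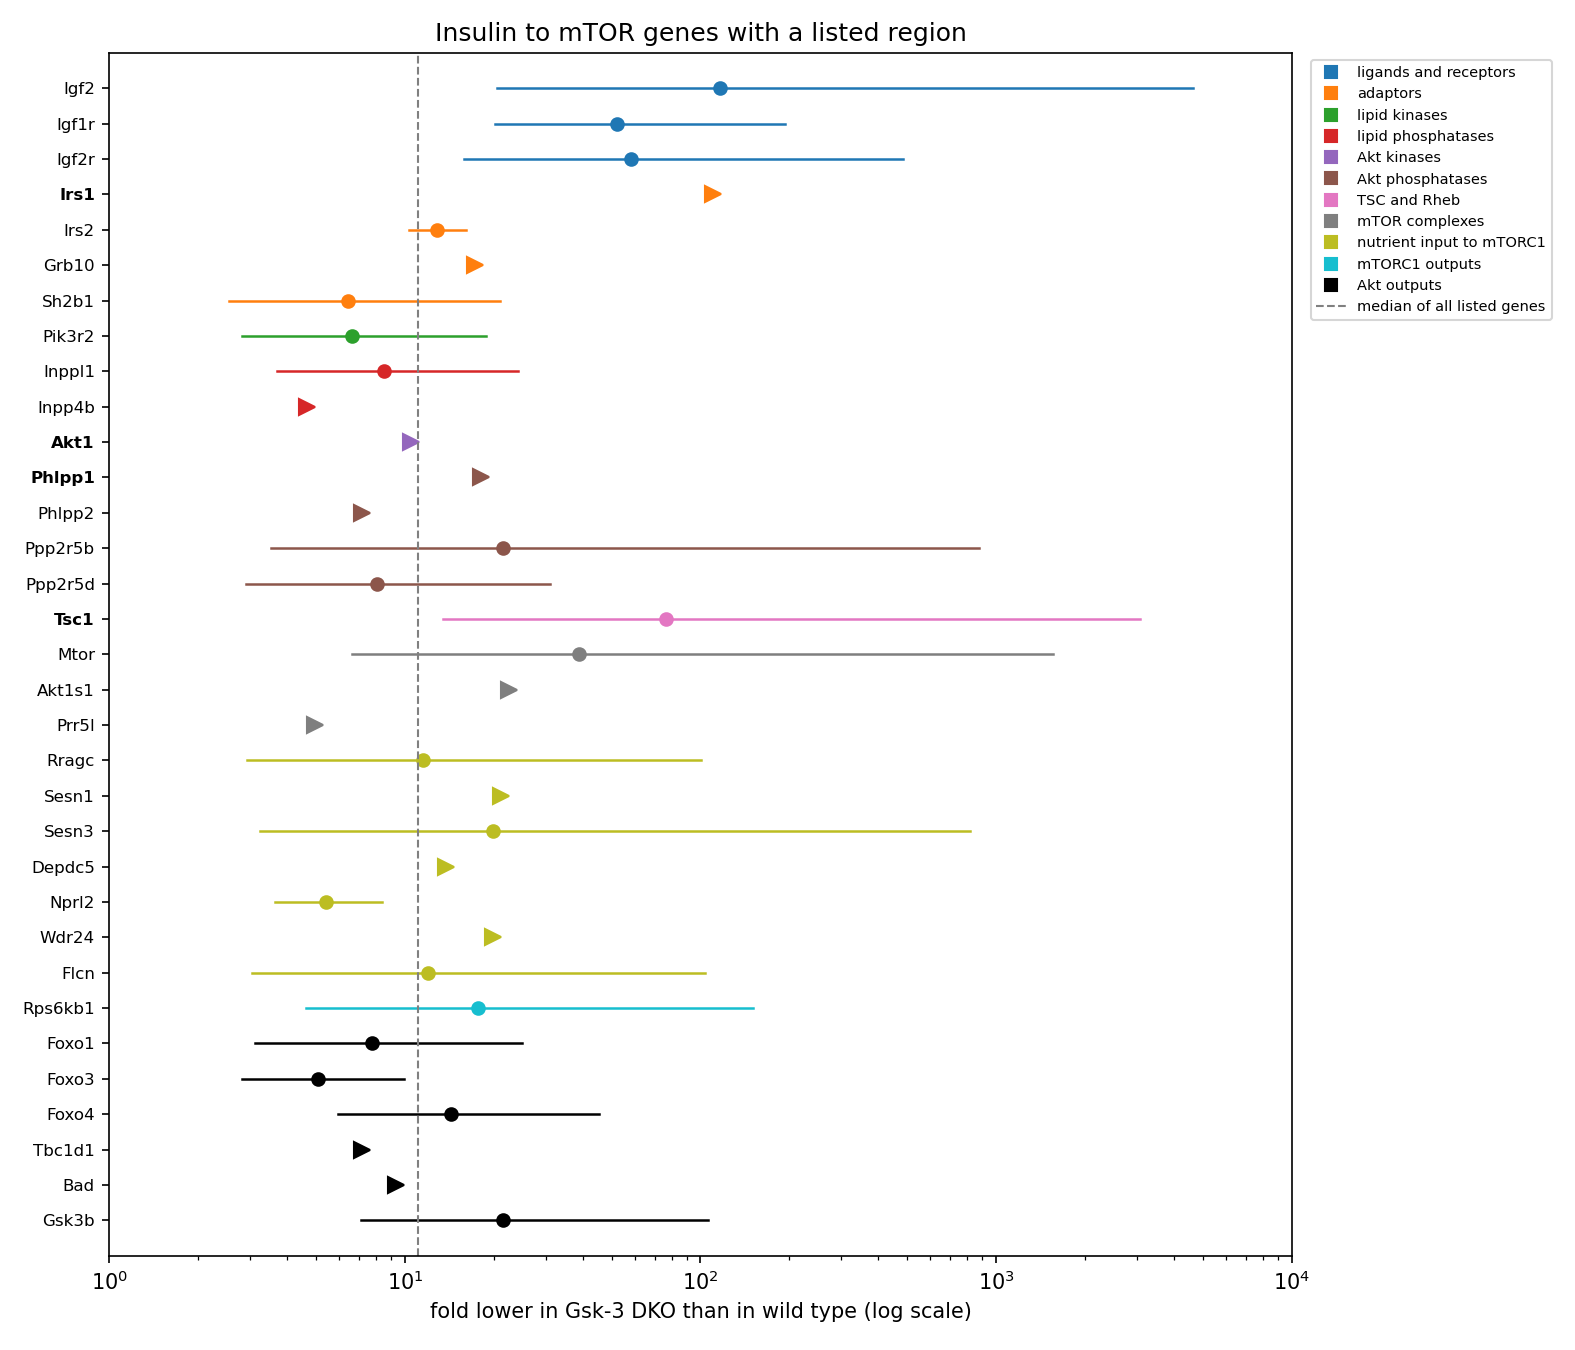
Fold lower in Gsk-3 DKO than in wild type (x axis, logarithmic) in the deepest region of the listed insulin to mTOR genes reported here, in order of role, with exact 95% counting intervals; triangles are lower bounds at a floor of 3 counts where the Gsk-3 DKO library had 0 reads, and the 4 genes described are in bold. Irs1 (at least 110) and Igf2 (116) lie farthest right, and Inpp4b (at least 4.67) farthest left among the bounds, where few wild-type reads limit what can be seen.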

How the data were processed

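The deposited table gives whole-number counts of reads per region for each genotype, and per the file headers no normalization is stated. The count headers name the genotype only, and the columns were matched to the m6A libraries because their titles carry the assay's name; counts from or corrected for input are not excluded. The deposited enrichment factor is a ratio, the wild-type over the double-knockout count times 0.825, blank where the latter is 0. The deposited read density is a signal, wild-type reads per base. Bowtie2, DESeq and mm9 appear, with no role, among the submitters' processing notes. Which peak caller and region filter were used is not given in the sources used here. Coordinates stand as in the table: of 6035 rows whose gene is in RefSeq's GRCm38.p6 table, 6026 (99.9%) were no more than 5000 bases from it there, and all 10 member regions lay inside their genes.

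Of 7562 rows, 6697 distinct regions were used once each in region counts. Log2 values are double knockout over wild type with the authors' constant and a pseudocount of 0.5; a gene's deepest region has the highest mean count. A region was called exonic if any row overlapped coding exon or UTR. Exact intervals were computed with scipy 1.17.1 in Python 3.11.15 and tested on simulated counts. The members and lists were chosen with earlier results of these data known. Named genes were the 4 members, listed pathway genes and the up to 3 nearest genes to each member, with none named among ties; some genes that the rule names are counted but not reported here; Tnc and the pairing of Irs1 with Irs2 were chosen after values were seen. Region sequences and the planned motif counts were left out because no genome was used. Alternatives were other pseudocounts, scalings, choices of region, a count filter and another floor.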

Additional observations from a re-analysis of the deposited data

How the results depend on the processing

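Of 59 alternatives, 43 stayed within counting error, or within 0.1 (log2) for the list's median and 1.5 times for counts of genes. None reversed the direction of a member or of the list's median. Only a change of scaling could have done so, since every listed region had fewer Gsk-3 DKO than wild-type reads. A median-ratio factor, which moves every log2 value up by 3.77 by construction, gave -5.60 for Irs1, -2.22 for Akt1, -1.92 for Tsc1, -3.01 for Phlpp1 and -1.08 for the pathway list, and left 0 list genes at least 10-fold lower. The share of all listed genes at 10-fold under this factor is not given here. Its shift is larger than the log2 difference of some list genes, such as Foxo3 (-2.30), which would lie above 0. The mean over its regions gave -6.37 for Irs1, and the deepest exonic region, which replaces the intronic one, gave -3.75 for Phlpp1. The list's median (-4.85) was -5.66 and -3.53 with pseudocounts of 0.25 and 2, -5.13 without the constant, -3.85 with exonic regions only (-4.32 for all genes), -5.54 above the median mean count of 22.5 (-4.27 for all genes) and -5.19 without upstream regions, the last chosen after seeing the data. The list genes without Gsk-3 DKO reads (14 of 34) were 8 of 24 with exonic regions and 7 of 21 above the median mean count, where fewer genes were counted. The shares of all listed genes under these filters are not given here, so these counts do not place the list against them. By region, 36.1% of exonic regions had 0 Gsk-3 DKO reads, against 50.5% of all listed regions. Akt1 lay under that count filter and has no value there. With the Poisson upper limit of 0, 3.69, as the floor, the bound for Irs1 region 1 was 89.7-fold and for Akt1 8.50-fold. Motif counts were not run. No paired analysis was possible because each genotype had 1 m6A library.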
